A study of Mus musculus with 83 samples.

Results

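The genes described here encode 8 enzymes and enzyme partners that write or remove methyl groups at lysines 27 and 9 of histone H3 (H3K27 and H3K9). They were taken by name: Ezh1, Ezh2, Eed, Suz12, Ehmt1, Ehmt2, Setdb1 and Kdm6b. All 8 were listed among the 11144 genes of the culture tables, and 16 of 29082 tissue transcripts belonged to them.

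The study followed brown preadipocytes, precursors of the heat-producing fat cell, through adipogenesis in culture, and among other chromatin features it profiled the repressive marks H3K27me3 and H3K9me2. The chromatin libraries were not analysed here, so only RNA is described. The culture RNA came from immortalized Pparg-flox/flox cells of C57BL/6J background, first taken from the interscapular brown fat of newborn mice, at day -3 (proliferating), day 0 (confluent, when the induction cocktail of insulin, T3, IBMX, dexamethasone and indomethacin was added), day 2 (immature adipocytes) and day 7 (mature adipocytes). A further library was made from the interscapular brown fat depot of C57BL/6J mice aged 16 weeks. No Cre is named for the RNA samples, and all 4 culture libraries share the floxed alleles. They also share immortalization with SV40 large T antigen, a viral protein known to bind the retinoblastoma proteins that hold back E2F, the transcription factor of DNA replication genes. With 1 library for each day and for the tissue, differences below lack replicates and are given without p-values.

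EZH2 or its paralog EZH1 is the catalytic subunit of Polycomb repressive complex 2 (PRC2), which methylates H3K27. EED and SUZ12 are the core subunits without which the complex is not active, and EED also binds the finished H3K27me3 mark. EZH2 is typical of dividing cells and EZH1 of cells that have left the cycle. EHMT2 (G9a) and EHMT1 (GLP) form a dimer that makes H3K9me1 and H3K9me2, SETDB1 makes H3K9me3, and KDM6B (JMJD3) takes methyl groups off H3K27. In fat, Ezh2 is known for repressing Wnt genes, Ehmt2 and Setdb1 for restraining adipogenic regulators in preadipocytes, and Ehmt1 as a partner of PRDM16 in brown fat.

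The culture values are FPKM, fragments scaled for transcript length and library size, and the tissue values are RPKM, the same scaling for reads. Median levels over all genes were 12.2, 13.0, 13.2 and 13.4 FPKM at days -3, 0, 2 and 7. Read depth is unknown for the culture. For the tissue, a single read on a 1 kb transcript corresponded to about 0.187 RPKM. Of 5 adipocyte markers (Adipoq, Fabp4, Plin1, Lpl and Cebpa) all were above 1 FPKM at days 2 and 7, with a summed level of 62.7 FPKM at day -3 and 6377 at day 7. Of 6 brown fat markers 4 were listed in culture. Ucp1, Cidea and Cox8b were at 1.22, 8.81 and 4.38 FPKM at day 7, against 1015, 1164 and 956 RPKM in the tissue, while Prdm16 was at 2.54 FPKM and 2.95 RPKM. A gene was called higher or lower at a difference of 1 or more in log2(FPKM + 1), that is 2-fold on this scale, provided that 1 of the 2 libraries reached 1 FPKM. This is a rule of size for 2 libraries, not a test of the conditions.

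The catalytic subunits of PRC2 went separate ways. Over days -3, 0, 2 and 7 Ezh1 measured 3.78, 9.12, 16.8 and 18.7 FPKM. Each library was above the one before it, with most of the difference in place by day 2. Between day -3 and day 7 the ratio was 4.95, a difference of 2.04 on the log2(FPKM + 1) scale, and 93.3% of the 10828 genes compared had a smaller signed difference. Ezh2 was at 95.7, 66.7, 60.3 and 74.3 FPKM on the same days. Its highest level was in the proliferating cells and its lowest at day 2, and no pair of days differed by 2-fold. Ezh2 exceeded Ezh1 25.3-fold in the first library and 3.98-fold in the last. The Ezh1 share of the summed FPKM of the 2 paralogs was thus 3.80%, 12.0%, 21.8% and 20.1% over the 4 days. These shares are taken within a library and do not depend on scaling between libraries. The sum itself was 99.5, 75.9, 77.1 and 93.0 FPKM, so Ezh2 made up most of it on all 4 days.

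**Figure D1:**
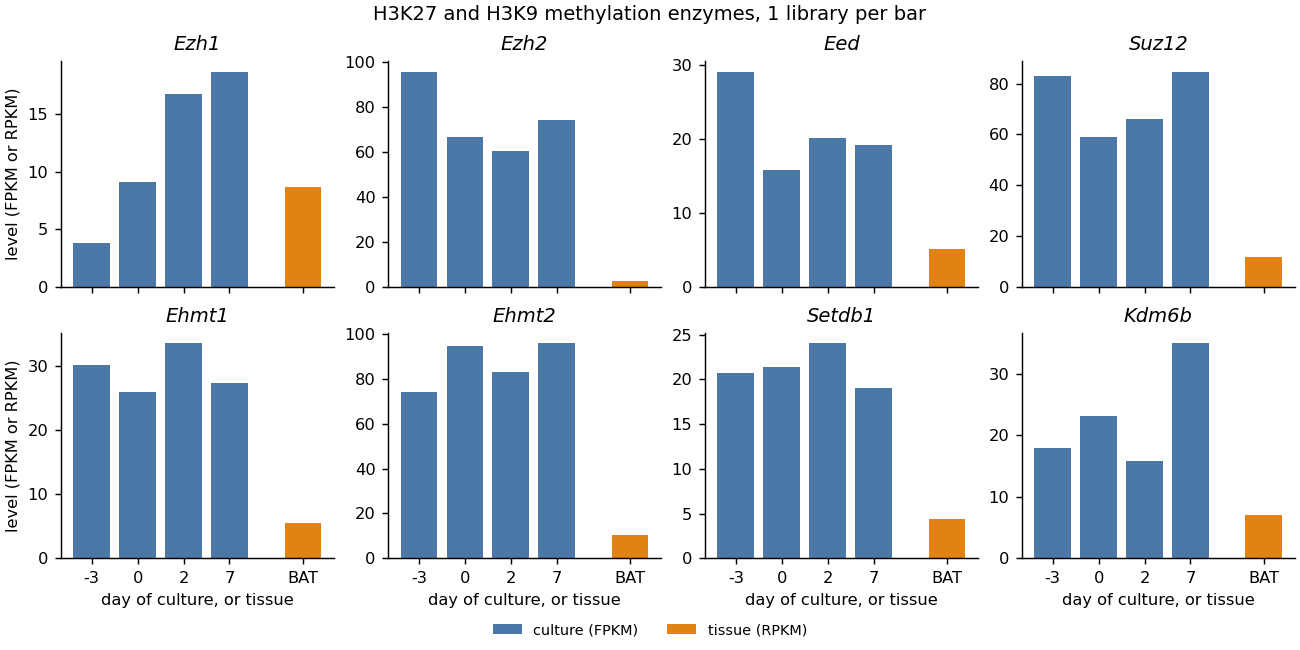
Level of each of the 8 genes in 1 library per bar: FPKM at culture days -3, 0, 2 and 7 (blue) and RPKM in brown adipose tissue (BAT, orange, highest transcript); each panel has its own axis from 0. Ezh1 goes from 3.78 to 18.7 FPKM over the culture, while Ezh2 stays between 60.3 and 95.7 FPKM and is at 2.69 RPKM in the tissue.

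The other core subunits were closer to Ezh2 in course. Over the 4 days Suz12 measured 83.0, 58.9, 66.1 and 84.6 FPKM. Its 2 high libraries were the first and the last. Eed was at 29.1, 15.8, 20.1 and 19.2 FPKM, highest in the proliferating cells and lowest at confluence. The step from day -3 to day 0 was the one at which Ezh2, Suz12 and Eed differed alike, by -0.51, -0.49 and -0.84 on the log2(FPKM + 1) scale, and none passed the 2-fold rule. With the libraries rescaled to a common total these values were -0.31, -0.28 and -0.64. Suz12 exceeded Eed by 2.85 to 4.41 times over the 4 days. Its ratio to the summed Ezh1 and Ezh2 lay between 0.776 and 0.910. DNA replication genes, a list that includes Pcna, Mcm2 and Mki67, were listed for 19 of 21 members, with summed levels of 1413, 1185, 1231 and 1183 FPKM over the 4 days. The culture thus kept replication transcripts at day 7. The median difference of the list from day -3 to day 7 was -0.23, beside 0.07 over all genes. Mki67, a marker of cycling cells, was among the genes of the list that went the other way, from 55.3 FPKM to 87.0. The 4 proliferation markers Mki67, Top2a, Ccnb1 and Cdk1 summed to 458, 386, 501 and 472 FPKM over the 4 days. The part of the replication genes in the level of Ezh2 was not tested.

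Promoter sequence is shown for Ezh1 and Ezh2 because the paralogs differed in course, and for Suz12 because its window and that of Ezh2 were the ones with an E2F-type word. The windows are RefSeq's for build GRCm38.p6, from 250 bases before to 50 after an annotated start. They were found for 7 of the 8 genes, with 2 windows for Ehmt2. Capitals mark an E2F-type word, any of TTTGGCGC, TTTCCCGC, TTTGCCGC or TTTCGCGC on either strand. The first line gives the 250 bases before the start of Ezh1 (chr11:101226464-101226713, minus strand), which hold none, and the second those of Suz12 (chr11:79992856-79993105, plus strand). The third gives 30 bases around the word in the window of Ezh2 (chr6:47595009-47595038, minus strand), where it begins 4 bases into the transcript from that start.

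Ezh1: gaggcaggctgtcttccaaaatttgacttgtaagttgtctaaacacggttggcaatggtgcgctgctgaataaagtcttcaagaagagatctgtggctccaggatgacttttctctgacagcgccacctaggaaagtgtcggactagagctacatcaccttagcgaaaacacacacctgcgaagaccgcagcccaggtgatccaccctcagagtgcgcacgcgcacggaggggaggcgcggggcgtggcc
Suz12: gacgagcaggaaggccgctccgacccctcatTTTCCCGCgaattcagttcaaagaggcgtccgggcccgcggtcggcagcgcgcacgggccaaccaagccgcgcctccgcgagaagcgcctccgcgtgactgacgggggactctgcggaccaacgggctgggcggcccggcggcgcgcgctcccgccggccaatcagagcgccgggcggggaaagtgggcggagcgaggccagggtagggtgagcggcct
Ezh2: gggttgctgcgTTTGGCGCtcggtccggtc

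In Suz12 the word begins 219 bases before the start. An E2F-type word was present in 2.26% of all 32851 windows of this length, and in 2 of the 8 windows of these genes. The window of Eed, the other core subunit, held 0, and no link of these words to the levels was tested. CCAAT, on either strand, occurred 3 times in the window of Ezh2, and 1 time each in those of Suz12, Eed and Setdb1. Of all windows 37.4% held it, and 11.7% held 2 or more. GGGCGG, on either strand, occurred 3 times each in the windows of Suz12 and Ehmt1, and 1 time in that of Setdb1. The 2 windows of Ehmt2 held it 2 and 4 times. It was present in 35.7% of all windows, and 19.5% held 2 or more. The window of Ezh1 held neither. CACGTG, also sought, occurred 2 and 1 times in the windows of Ehmt2 and in no other of these windows. Among all windows 7.15% held it, and 0.594% held 2 or more. A match describes letters in a window and shows no bound factor.

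The H3K9 writers varied least. Over the 4 days Ehmt2 measured 74.1, 94.6, 83.1 and 95.8 FPKM and Ehmt1 30.2, 25.99, 33.6 and 27.3. When one of the pair was at its higher levels the other was at its lower ones, within a narrow range. The Ehmt1 share of their summed level was thus 28.9%, 21.6%, 28.8% and 22.2%. Setdb1 was at 20.8, 21.3, 24.0 and 19.02 FPKM, the flattest of the 8. The difference between the highest and lowest culture library was 0.32 on the log2(FPKM + 1) scale for Setdb1, 0.36 for Ehmt1 and 0.37 for Ehmt2. Only 6.14% to 8.33% of all 11144 genes varied less than these, where the median gene spanned 0.97. Suz12 spanned 0.52, Ezh2 0.66 and Eed 0.84. Kdm6b, at 1.09, and Ezh1, at 2.04, lay above the median gene.

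Kdm6b, the H3K27 demethylase, measured 18.0, 23.1, 15.8 and 35.0 FPKM. The day 7 library stood above the other 3, which had no steady course. The step from day 2 to day 7 was a ratio of 2.21. Against day -3, day 7 was higher by 0.92 on the log2(FPKM + 1) scale, short of the rule, and by 1.05 after rescaling to a common total. Kdm6a (UTX), its X-linked paralog, was at 9.66, 12.6, 15.2 and 17.5 FPKM. Each of its libraries was above the one before. The Kdm6b share of the sum of both was 65.0%, 64.8%, 51.1% and 66.7%.

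Counted over the 8 genes, 1 was higher at day 0 than at day -3 (Ezh1) and 0 were lower, where 11.3% of all genes compared were higher and 5.43% lower. Day 2 against day 0 gave none of the 8 in either direction (0 and 0), beside 6.18% and 10.7% of all genes. Ezh1 was nearest, with a difference of 0.81. Between day 2 and day 7, 1 of 8 was higher (Kdm6b) and 0 lower, against 9.62% and 5.14%. From day -3 to day 7, 1 of 8 was higher (Ezh1) and 0 lower, against 20.3% and 14.7%. The counts are near these shares and are no result about the group. With a pseudocount of 5, Ezh1 at the first step (0.69) and Kdm6b at the last (0.94) fell short of the rule. The median difference over the 8 was -0.08, 0.16, 0.17 and -0.05 in the order of these comparisons, beside 0.06, -0.01, 0.02 and 0.07 over all genes. With a 1.5-fold rule, day 0 against day -3 gave 1 higher (Ezh1) and 1 lower (Eed), beside 23.4% and 14.6% of all genes. Day 2 against day 0 gave 1 higher (Ezh1) and 0 lower, beside 14.6% and 21%. Day 7 against day 2 gave 1 higher (Kdm6b) and 0 lower, beside 19.2% and 13.8%. Day 7 against day -3 gave 2 higher (Ezh1 and Kdm6b) and 0 lower, beside 31.8% and 25.4%. The comparisons share libraries and are not independent of each other.

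**Figure D2:**
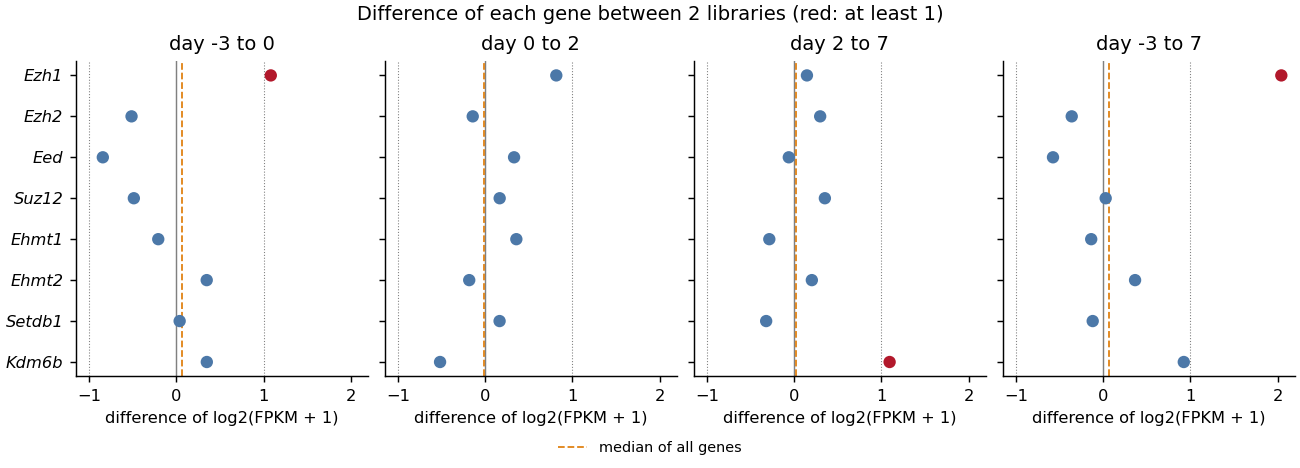
Difference of log2(FPKM + 1), later minus earlier library, for each gene in 4 comparisons; dotted lines mark -1 and 1, the dashed line is the median of all genes, and red points are at least 1 from 0. Ezh1 is red from day -3 to 0 and from day -3 to 7 (1.08 and 2.04) and Kdm6b from day 2 to 7 (1.09).

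**Figure D3:**
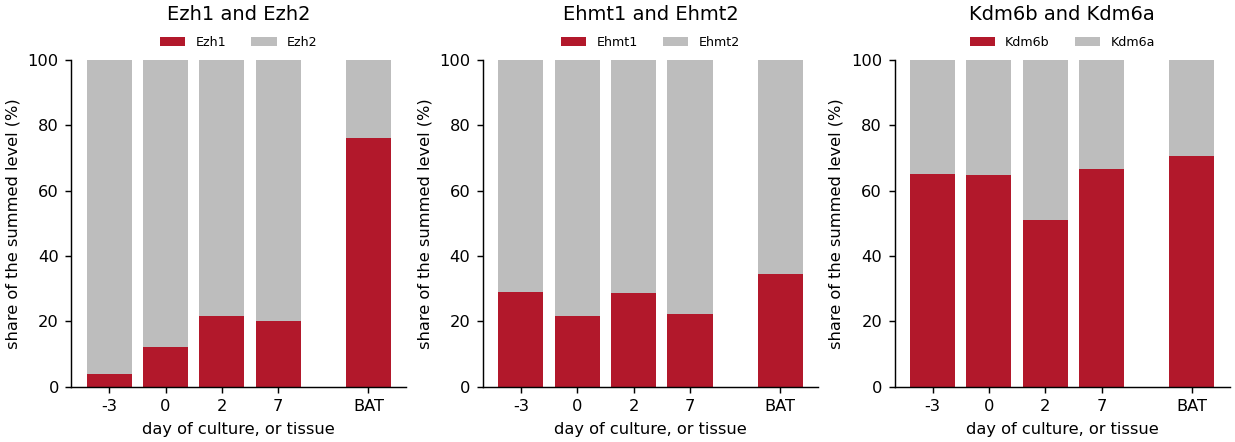
Share of each paralog in the summed level of its pair within a library, in percent, at culture days -3, 0, 2 and 7 and in brown adipose tissue (BAT), 1 library per bar. Ezh1 makes up 3.80% to 21.8% of its pair in culture and 76.3% in tissue, while the other pairs differ less between libraries.

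Brown adipose tissue had another balance of the H3K27 methyltransferases. Ezh1 was at 8.65 RPKM and Ezh2 at 2.69 RPKM, so Ezh1 exceeded Ezh2 by 3.21 times and made up 76.3% of their sum, where Ezh2 was the higher in all 4 culture libraries. With tissue transcripts summed per gene instead of taking the highest, the share was 61.7%. At 2.69 RPKM a transcript of 1 kb would have had 14.4 reads, and the transcript length is not in the tables used. Suz12 was at 11.6 RPKM, Eed at 5.17, Ehmt2 at 10.4, Ehmt1 at 5.49, Kdm6b at 6.98 and Setdb1 at 4.37. By the highest transcript Ehmt2 and Suz12 were the highest of the 8 in the tissue and Ezh2 the lowest, whereas at day 7 Ezh2 was the third highest. With transcripts summed per gene, Ehmt1 came after Suz12 and above Ehmt2, and Eed lay below Ezh2. The listed transcripts of a gene carried nearly equal values, for Ezh2 2.69 and 2.68 RPKM, so such a sum grows with their number. How reads shared by transcripts were counted is not given. In a tissue, fewer cells of a type and less RNA per cell cannot be told apart.

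FPKM and RPKM tables were made separately, and the median gene was lower in the tissue by 1.46 on the log2 scale, so ranks within each library were compared over 10473 genes. Ezh2 ranked at the 91.9th percentile at day 7 and the 31.9th in the tissue, a difference of -60.0 percentage points, and 1.65% of genes had a more negative one. Ezh1 ranked at the 58.4th and the 66.6th percentile, the 1 gene of the 8 with the higher rank in tissue. The other 6 lay between, from -23.3 points for Ehmt2 to -8.53 for Eed. In all 7 of 8 ranked lower in the tissue, where 49.5% of all genes did. All 8 were at the 58.4th percentile or above at day 7, with more room below than above. The 49.5%, here and for the lists below, is over genes of every day 7 rank. No share was taken over genes of like rank. With transcripts summed per gene, 5 of 8 ranked lower. Setdb1 and Ehmt1 then ranked higher by 12.9 and 11.2 points, and Ezh2 still lower, at -45.3 points.

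DNA replication genes also ranked lower in the tissue than at day 7. All 19 that were ranked did so, where 49.5% of all genes did, with a median of -68.5 points. The list summed to 30.7 RPKM in the tissue over 21 members. The proliferation markers Mki67, Top2a, Ccnb1 and Cdk1 summed to 0.514 RPKM in the tissue, with Cdk1 at 0, against 472 FPKM at day 7. The tissue also held markers of other cell types. All 4 skeletal muscle genes (Acta1, Ckm, Myh4 and Tnnt3) were listed with a sum of 1124 RPKM, against 1 listed gene at 0.272 to 6.19 FPKM in culture. All 4 endothelial genes (Pecam1, Cdh5, Kdr and Tek) summed to 125 RPKM, against 1 listed gene at 0.0668 to 1.88 FPKM. Of the macrophage list 3 of 4 (Adgre1, Ptprc and Csf1r) were listed in the tissue, with a sum of 4.46 RPKM. Only Cd68 was listed in culture, at 3.32 to 4.20 FPKM, so no macrophage gene had a value in both. Of 2 hemoglobin genes 1 was listed, at 88.0 RPKM. None of these lists was at 0 throughout, and their part in the levels of the 8 genes was not tested.

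**Figure D4:**
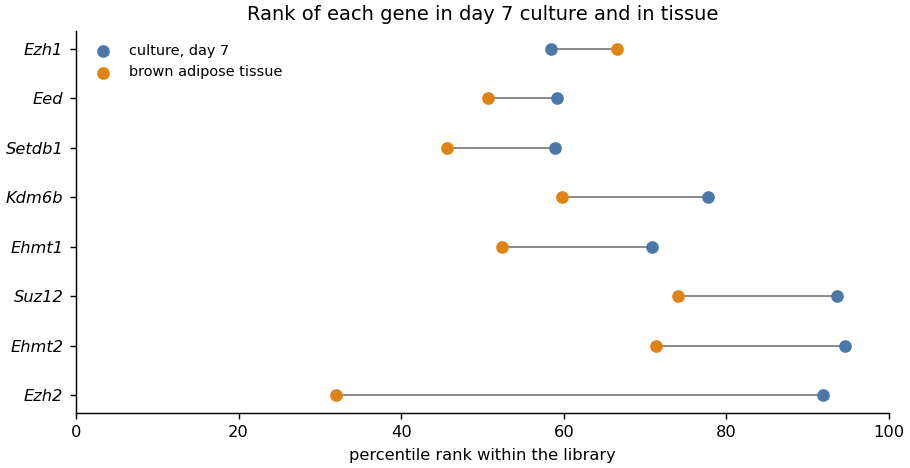
Percentile rank of each gene within the day 7 culture library (blue) and within the brown adipose tissue library (orange), over 10473 genes, 1 library each. The line for Ezh2 runs from 91.9 to 31.9, and Ezh1 is the gene whose tissue point lies to the right.

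The partners of PRC2 included the widest difference of the genes listed for these pathways. Jarid2, which helps to bring PRC2 to chromatin, measured 2.56, 3.84, 9.72 and 33.4 FPKM. Between the first and last library the log2(FPKM + 1) value differed by 3.27. Epop, another PRC2 partner, listed under an older symbol, went the other way, at 8.18, 3.66, 2.54 and 1.44 FPKM. Phf1, a PRC2-associated reader, alternated between 6.50, 14.4, 5.31 and 13.5 FPKM. With a pseudocount of 5 each of its steps fell short of the rule, at 0.75, -0.91 and 0.84. Its first step also fell short (0.96) with median-ratio scaling. Lcor was at 3.25, 3.27, 4.35 and 8.76 FPKM, and its difference of 1.20 between the first and last library was 0.74 with a pseudocount of 5, short of the rule. The histone-binding subunits Rbbp4 and Rbbp7 were at 109 to 206 FPKM and passed the rule in no comparison. Of the 10 genes on this list 8 were listed in culture. From day -3 to day 7 there were 2 higher and 1 lower, near the 20.3% and 14.7% of all genes.

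PRC1, the complex that binds H3K27me3 and ubiquitylates histone H2A, had genes on both sides. Among the 23 of 24 genes listed, 4 were higher and 3 lower at day 7 than at day -3, with a median difference of -0.02. These counts too are near the shares of all genes, 20.3% and 14.7%. The chromobox gene Cbx7, whose product reads H3K27me3, was on the higher side, at 2.20, 7.77, 4.93 and 10.9 FPKM. Cbx6 was highest at day 0, at 37.3, 73.8, 56.4 and 23.9 FPKM. Phc2, a polyhomeotic subunit, was at 129, 50.4, 32.6 and 25.0 FPKM, and Scmh1 at 36.6, 27.4, 9.86 and 12.8. Pcgf5 measured 16.4, 14.1, 10.3 and 25.6 FPKM. The E3 ligase subunit Rnf2 stayed between 19.5 and 22.5 FPKM.

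Among the H3K9 demethylases, 10 of 11 genes were listed. At day 7 against day -3 there were 3 higher and 0 lower, beside 20.3% and 14.7% of all genes, and the median difference was 0.62 beside 0.07 over all genes. The list has no test, and a count of 3 is near that share. Kdm4b was at 7.70, 11.2, 19.4 and 48.2 FPKM. Kdm3a (JHDM2A), an H3K9me1 and H3K9me2 demethylase, was at 11.0, 16.0, 17.1 and 58.3 FPKM, so the day 7 library stood apart from the other 3. Kdm7a, listed as Jhdm1d and known to act on H3K9me2 and H3K27me2, was at 1.30, 4.30, 12.6 and 12.3 FPKM. Kdm1a was the 1 gene of the list to go the other way by more than 1.5-fold, at 71.0 FPKM at day -3 and 36.01 at day 7, a difference of -0.96. In the tissue 9 of the 10 ranked lower than at day 7, where 49.5% of all genes did. The median was -16.9 points, near the median of -18.2 for the 8 genes described, and 0.14 over all genes.

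Of the 4 further H3K9 writers 3 were listed in culture and 0 passed the rule in any comparison. Suv39h1, an H3K9me3 writer, was at 37.0, 24.7, 30.7 and 26.9 FPKM. Of 12 listed readers and partners of H3K9 methylation 0 passed the rule at any of the 3 steps, where 5.14% to 11.3% of all genes did in a given direction. From day -3 to day 7 there were 1 higher and 2 lower, beside 20.3% and 14.7%. Trim28 (KAP1), which brings SETDB1 to its targets, was at 236, 159, 162 and 113 FPKM. Atf7ip, the partner that stabilizes SETDB1, was at 4.74, 9.37, 9.41 and 11.0 FPKM, and Pphln1 of the HUSH complex at 48.9, 30.1, 36.3 and 22.1. Setdb1 itself thus stayed level while these partners lay to both sides. Each of the 3 calls was lost under some alternative. With a pseudocount of 5 Atf7ip was at 0.71 and Pphln1 at -0.99, and with a common total Trim28 was at -0.92 and Pphln1 at -0.98.

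**Figure D5:**
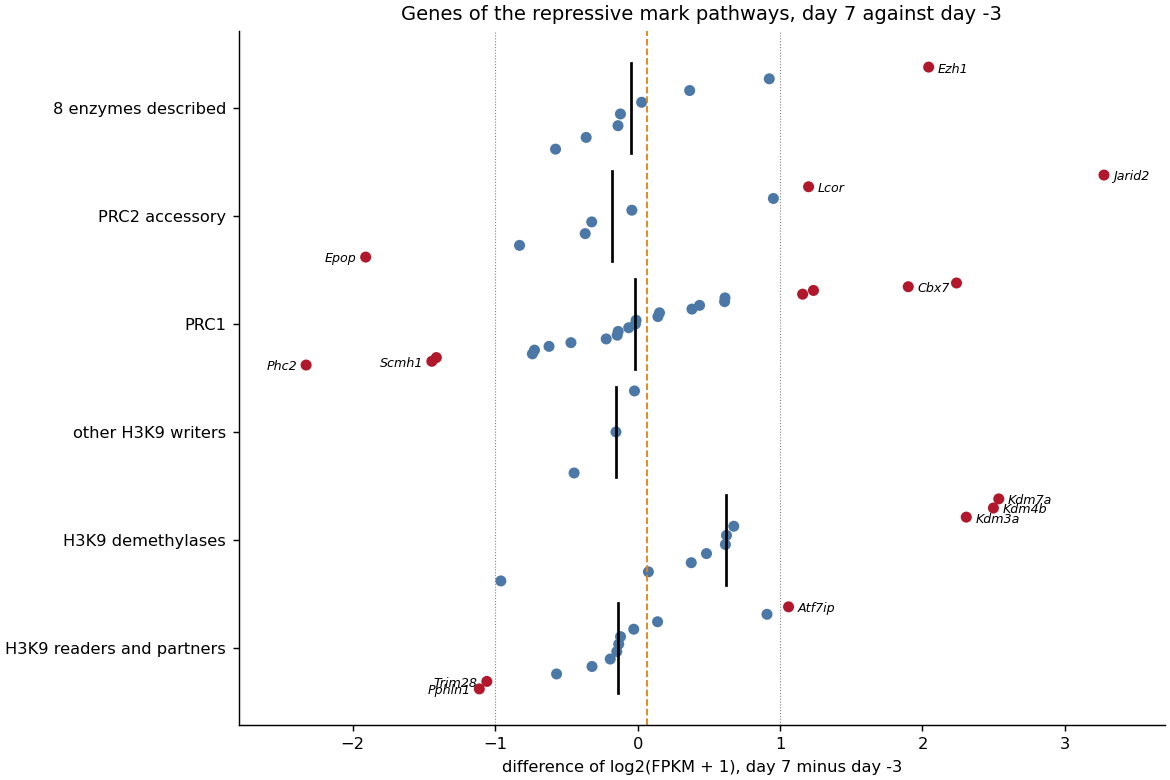
Difference of log2(FPKM + 1), day 7 minus day -3, for each listed gene of 6 groups; black bars are group medians, the dashed line is the median of all genes (0.07), dotted lines mark -1 and 1, and red points are at least 1 from 0. The median of the H3K9 demethylases is 0.62, and Jarid2 is the farthest point at 3.27.

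Genes with the most similar course were sought for Ezh1 and Kdm6b, the 2 whose culture values spanned at least 1 on the log2 scale. The measure was the root mean square distance between profiles of log2(FPKM + 1) over the 4 culture libraries, each centred on its own mean, among 9380 other genes reaching 5 FPKM. For Ezh1 the nearest were Arrdc2 at a distance of 0.053, with 1.503, 3.81, 8.15 and 8.83 FPKM, Fam173a at 0.076 and 0610007C21Rik at 0.090. For Kdm6b they were Rnf13 at 0.020, with 16.1, 21.3, 14.5 and 31.2 FPKM, Ulk3 at 0.043 and Rras at 0.044. Within a distance of 0.2 lay 53 genes for Ezh1 and 165 for Kdm6b, so with 4 libraries such courses were shared by many genes.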

How the data were processed

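RNA was measured in 5 of the series' 83 samples, grouped by title with 1 library each. Poly(A)-selected RNA was sequenced, per the labels' protocols. The culture values are FPKM by gene symbol and the tissue values RPKM by RefSeq transcript, both as the authors deposited them. The submitters' processing notes name CASAVA 1.8.2, SICER, TopHat2 2.0.10, Cufflinks 1.0.3 and build mm9. The roles of these tools, the annotation and the treatment of reads shared by similar genes are not given in the sources used here. Every gene in the culture tables exceeded 1 FPKM in at least 1 library, and no level is known for an unlisted gene.

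Computation used Python 3.11.15, pandas 2.3.3, numpy 2.4.6 and matplotlib 3.10.9. Differences are of log2(value + 1), which understates those of low genes. The culture depth could not be recovered: at most 5.61% of genes below 0.3 FPKM in 2 libraries shared 1 ratio. Tissue transcripts were matched to symbols by accession in RefSeq's table of GRCm38.p6 (97.8% to 1 symbol), which also gave the lengths of 31 short sensory receptor genes behind the estimate of reads, of which 31 came out whole within 0.01. The highest transcript stood for a gene. The size rule was run on simulated data with planted differences larger than the rule and an assumed noise. Such data cannot show how it fares with the spread between cultures, which is unknown. Older symbols counted only where RefSeq lists them as synonyms.

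The genes and lists were chosen with earlier results of these data known. All 8 genes are named, with their 3 nearest courses where the span reached 1; of the pathway lists, up to 4 called genes per list and comparison that reached 5 FPKM, of which 1 is not reported here. Kdm1a, Rbbp4, Rbbp7, Rnf2, Suv39h1, Kdm6a, Uty, Uhrf1, Cbx2, Kdm2b, Bmi1, Pcgf3 and the targets given in the closing observations were chosen after their values were seen. The input DNA was not used. Alternatives were other pseudocounts, filters, scalings and a 1.5-fold rule, and for the tissue sums or means of transcripts and other filters.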

Additional observations from a re-analysis of the deposited data

How the results depend on the processing

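Counts of called genes among the 8 changed as follows. With a pseudocount of 5, Ezh1 from day -3 to day 0 (0.69) and Kdm6b from day 2 to day 7 (0.94) fell short, leaving 0 at each step. With the 1.5-fold rule the counts were 2 from day -3 to day 0, 1 from day 0 to day 2 and 2 from day -3 to day 7, and with a common total 2 from day -3 to day 7. That total raised the median of all genes from 0.06 to 0.25 for day -3 to day 0 and from 0.07 to 0.20 for day -3 to day 7. Ezh1 from day -3 to day 7 was called under all 7 alternatives. The filters, the pseudocount of 0.1 and the 1.5-fold rule could not have removed that call. With a pseudocount of 5 the difference was 1.43. Summing tissue transcripts gave shares of 61.7% for Ezh1 and 51.8% for Ehmt1 (34.6% by the highest). The 4 Ehmt1 transcripts are each listed at 5.37 to 5.49 RPKM. No called difference changed sign, and the pseudocounts, filters and 1.5-fold rule could not have changed one. With 1 library per time, spread between cultures or animals is unknown, and counting error cannot be given for the culture.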

Other observations

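Genes reported as targets or partners of these enzymes are given as values. Of 4 Wnt genes 1 was listed in culture: Wnt10b, whose product holds back fat cell formation, measured 5.18, 4.90, 0.173 and 0.196 FPKM over days -3, 0, 2 and 7, and it is listed at 0 in the tissue. Cdkn2a, a cell cycle inhibitor locus known as a PRC2 target, was at 118, 289, 211 and 242 FPKM in culture, while it is listed at 0 in the tissue. Cdkn2b, its neighbour, was at 18.7, 47.9, 30.5 and 29.2 FPKM and 0.671 RPKM. Prdm16, whose product works with EHMT1, measured 0.427 FPKM in the first culture library, 2.54 in the last and 2.95 RPKM in the tissue. Its culture values are low beside the 27.3 FPKM of Ehmt1 at day 7.

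The X-linked demethylase gene Kdm6a has a Y-linked relative, Uty, which was listed in the tissue only, at 5.51 RPKM, above the 2.91 RPKM of Kdm6a. Among further genes of the lists, Uhrf1, which reads H3K9 methylation at hemimethylated DNA, was at 52.2 to 69.1 FPKM in culture and 0.220 RPKM in the tissue, Cbx2 of PRC1 at 9.47 to 13.2 FPKM and 0.500 RPKM, and Kdm2b at 19.8 to 25.2 FPKM and 0.797 RPKM. Of the 23 PRC1 genes ranked, 17 were lower in the tissue than at day 7 and 6 higher, where 49.5% of all genes were lower. Bmi1, Pcgf3 and Cbx7 were among the higher, by 18.2, 18.1 and 11.6 percentage points. Of the 8 PRC2 partners ranked, 7 were lower in the tissue and 1 higher, with a median of -18.6 points. Phf1 was the higher one, by 17.5 points, and Jarid2 was among the lower, at -38.0 points.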
